A study of Homo sapiens with 15 samples.

Results

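The 7 genes PMAIP1, BMF, BIK, BAD, BCL2L11, BBC3 and BID encode the BH3-only group of the BCL2 family. They were taken by gene name from the 58735 genes of the table. The libraries measured RNA of UKE-1 cells, a myeloid cell line that came from an acute leukaemia following a myeloproliferative neoplasm and that carries an activated JAK2. There were 5 groups of 3 libraries each. Cells of 3 groups were stimulated with TNF-α and then given MCL together with ruxolitinib, MCL alone or ruxolitinib alone. Another group had TNF-α without a drug, and the last was untreated. MCL stands here for micheliolide, the sesquiterpene lactone named in the title of the series, and not for the gene MCL1. Ruxolitinib inhibits the kinases JAK1 and JAK2, and TNF-α, which all drug-treated cells also received, stood for an inflammatory environment. RNA was taken at 3 h after treatment. The sources used here give no doses, no length of stimulation and no vehicle. Whether replicate libraries are separate cultures is also unstated, so every p-value is against a spread among libraries that could be technical. A single cell line stands for the disease.

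BH3-only proteins start the mitochondrial route of cell death. Each carries a short helix, the BH3 helix, that fits a groove on the survival proteins of the family (BCL2, BCL-XL, MCL1 and BCL2A1). Some of them also activate the pore-forming effectors BAX and BAK directly. Cells hold these proteins in check at different points, some at transcription, some by phosphorylation or by tethering to the cytoskeleton, and BID by keeping it uncleaved. In blood cells, loss of cytokine signals and stress of the endoplasmic reticulum are known to act through them, so that their RNA levels are often read after kinase inhibitors.

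The coding stretch of the BH3 helix is what joins these genes, which otherwise share little sequence, and it is shown here for each. The coding sequence of the transcript tagged as principal for each gene (GENCODE 29, hg38) was translated and searched for a codon for leucine, 3 of any kind, a codon for glycine, alanine or serine and a codon for aspartate. Capitals mark the 18 bases of that match, with 9 bases on either side, 5′ to 3′ on the coding strand.
PMAIP1: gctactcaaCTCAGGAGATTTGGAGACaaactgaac
BMF: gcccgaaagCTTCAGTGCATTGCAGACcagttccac
BIK: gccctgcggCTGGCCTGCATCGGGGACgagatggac
BAD: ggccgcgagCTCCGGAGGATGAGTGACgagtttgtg
BCL2L11: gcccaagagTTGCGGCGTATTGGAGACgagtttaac
BBC3: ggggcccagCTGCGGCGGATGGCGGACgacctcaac
BID: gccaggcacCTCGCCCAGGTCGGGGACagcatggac
The match began at codon 29 of 54 in PMAIP1, 137 of 184 in BMF, 61 of 160 in BIK and 114 of 168 in BAD. It began at codon 92 of 138 in BCL2L11 and 141 of 193 in BBC3. BID had 2 matches in its 241 codons, and the second, from codon 136, is the one in its known BH3 helix and is shown. Not every coding transcript of a gene held the match: it was in 1 of 2 for PMAIP1, 4 of 9 for BMF, 4 of 6 for BAD, 9 of 16 for BCL2L11 and 6 of 11 for BID. The counts were per gene, so transcripts with and without the helix could not be separated.

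Library totals ranged from 15476399 to 18035604 counts, and 16146 genes passed a filter on low counts, among them 7 of the 7 BH3-only genes. Levels are given as CPM with TMM factors, which scale each library by its total and correct for a few very abundant transcripts. A gene was called at an adjusted p under 0.05 in edgeR's quasi-likelihood test. Of the progenitor markers, CD34 was at 958 to 1290 CPM, PTPRC at 296 to 354 and GATA2 at 120 to 553, while MPO was at 0.185 to 1.33 CPM. Among markers of other cells, EPCAM, CDH1 and MS4A1 had no counts, whereas CDH5 (162 to 263 CPM), PECAM1 (136 to 161), KRT18 (58.2 to 104) and CD79A (19.3 to 27.3) were detected. In RNA of whole cultures, fewer cells with a transcript and less of it per cell cannot be told apart.

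Per kilobase of annotated exon, PMAIP1 had the highest level of the 7 genes in each of the 5 groups and BIK the lowest. With both drugs PMAIP1 stood at 85.1 ± 1.45 CPM per kb, against 20.3 ± 0.274 with TNF-α alone (SD, n = 3 each). BBC3 at 12.99 and BID at 9.01 CPM per kb followed it with both drugs, then BAD at 5.495, BCL2L11 at 4.75 and BMF at 4.05. With ruxolitinib alone BMF ranked directly after PMAIP1, at 14.5 CPM per kb, with BBC3 at 13.1 and BID at 11.85 below it. In untreated cells BMF was at 1.47 CPM per kb, with 6 genes in the order PMAIP1, BID, BAD, BBC3, BCL2L11 and BMF above BIK at 0.3615. These ranks rest on the length of all annotated exons and not on the transcripts in use.

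**Figure D1:**
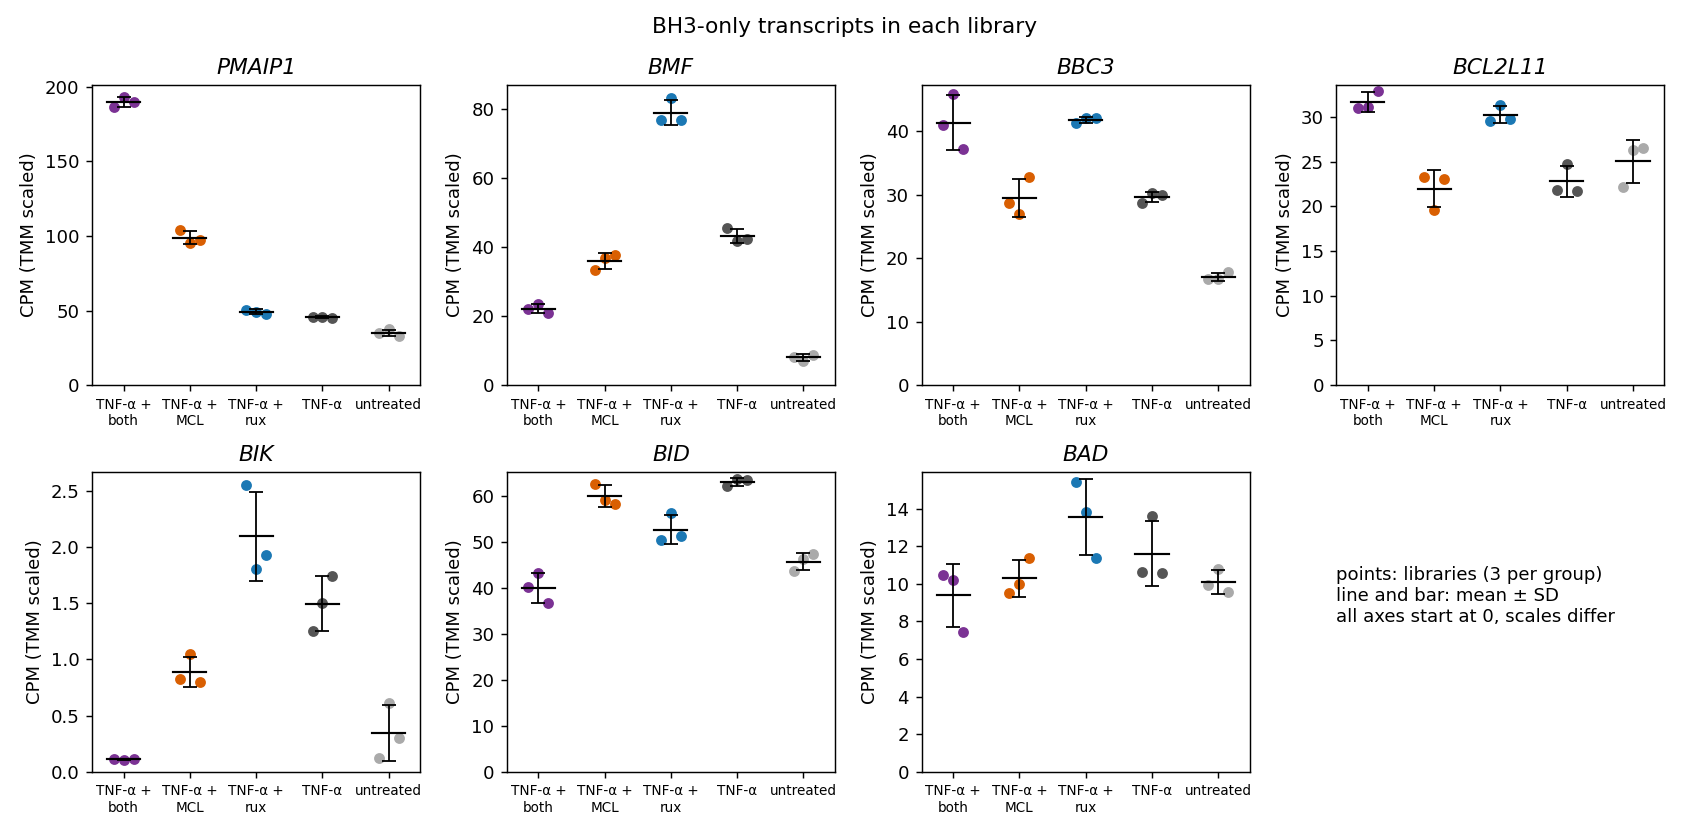
CPM (TMM scaled, axes from 0) of the 7 BH3-only genes in each library, by group; points are the 3 libraries of a group, line and bar the mean ± SD. PMAIP1 is highest with both drugs (187 to 193 CPM), BMF and BIK are highest with ruxolitinib alone and low with both drugs, and BAD overlaps between several groups.

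PMAIP1 (ENSG00000141682, chr18:59899948-59904306, plus strand, hg38) encodes NOXA, which binds mainly MCL1 and BCL2A1. It was raised by MCL, and much further by MCL with ruxolitinib, which alone moved it little. It had 187, 193 and 190.2 CPM with both drugs, 104, 95.4 and 97.2 with MCL, 50.7, 49.3 and 47.6 with ruxolitinib, and 45.6, 45.9 and 44.7 with TNF-α alone. Untreated libraries had 34.7, 37.4 and 33.0 CPM. No groups overlapped, and the nearest to each other were ruxolitinib and TNF-α alone. Against TNF-α alone the fold was 4.19 with both drugs (log2 2.07 ± 0.05 SE, adjusted p = 5.84e-44). It was 2.18 with MCL (1.12 ± 0.05, adjusted p = 4.45e-28). With ruxolitinib the log2 change was 0.11 ± 0.05 and was not called (adjusted p = 0.153). TNF-α itself raised PMAIP1 by 0.37 ± 0.06 over untreated cells (adjusted p = 1.25e-07).

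BMF (ENSG00000104081, chr15:40087890-40108892, minus strand) encodes a protein that is held at the actin cytoskeleton by a dynein light chain and binds several survival proteins once released. It rose with TNF-α, rose further with ruxolitinib and fell with both drugs. It had 22.1, 23.3 and 20.8 CPM with both drugs, 33.3, 36.9 and 37.6 with MCL, 76.7, 83.1 and 76.9 with ruxolitinib, and 45.4, 41.8 and 42.2 with TNF-α alone. Untreated libraries had 8.23, 7.0 and 8.75 CPM. No groups overlapped, and the libraries with both drugs lay between the untreated ones and those with TNF-α. TNF-α raised BMF 5.4-fold (log2 2.43 ± 0.08, adjusted p = 2.45e-34). Ruxolitinib raised it 1.83-fold over TNF-α alone (0.87 ± 0.06, adjusted p = 3.12e-18). MCL lowered it by a smaller amount (-0.26 ± 0.07, adjusted p = 0.00159), and with both drugs it was at 0.512 of its level with TNF-α alone (-0.97 ± 0.07, adjusted p = 6.04e-19).

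BIK (ENSG00000100290, chr22:43110748-43129712, plus strand) encodes a BH3-only protein of the endoplasmic reticulum. It had few reads. BIK passed the filter on low counts through the groups with TNF-α alone or a single drug, where each library had at least 13 reads. Its group means stood in the same order as those of BMF, except that the one with both drugs was the lowest. Libraries with both drugs had 2, 2 and 2 reads, those with MCL 14, 16 and 13, those with ruxolitinib 42, 29 and 33, and those with TNF-α alone 19, 25 and 28. Untreated libraries had 2, 11 and 5 reads. As CPM this was 0.112 ± 0.00342 with both drugs, 0.891 ± 0.133 with MCL, 2.095 ± 0.398 with ruxolitinib, 1.497 ± 0.245 with TNF-α alone and 0.3445 ± 0.247 in untreated cells (SD, n = 3 each). The groups with both drugs and with MCL each lay below TNF-α alone with no overlap. Between both drugs and untreated cells, which each had a library with 2 reads, no test was made. Summed over libraries, 6 reads with both drugs stood against 72 with TNF-α alone, which scaled to a ratio of 0.0746. Its exact 95% interval ran over 0.0265 to 0.171 and covers counting error only. BIK fell with both drugs (log2 -3.65 ± 0.52, adjusted p = 1.27e-08) and rose with TNF-α over untreated cells (2.07 ± 0.42, adjusted p = 7.93e-05). With no filter on low counts these adjusted p-values of the same test were 1.61e-10 and 6.16e-05. MCL alone (-0.75 ± 0.37, adjusted p = 0.131) and ruxolitinib alone (0.48 ± 0.33, adjusted p = 0.378) gave no call. The counting interval of the ratio was 0.395 to 0.874 with MCL and 1.02 to 1.91 with ruxolitinib.

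BAD (ENSG00000002330, chr11:64269830-64284704, minus strand) encodes a protein that growth-factor kinases phosphorylate and so hold in the cytosol. Over TNF-α alone, neither drug by itself gave a call (-0.18 with MCL and 0.22 with ruxolitinib). It had 10.49, 10.2 and 7.46 CPM with both drugs, 9.496, 9.99 and 11.37 with MCL, 15.4, 13.8 and 11.40 with ruxolitinib, 10.65, 13.6 and 10.56 with TNF-α alone, and 9.915, 10.8 and 9.59 in untreated cells. It was lower with both drugs than with ruxolitinib (-0.53 ± 0.12, adjusted p = 0.00029), where its groups did not overlap. The gap between both drugs and TNF-α alone was very narrow, as was that between MCL and ruxolitinib, and its groups overlapped in the other comparisons. Against TNF-α alone the call with both drugs (-0.31 ± 0.13, adjusted p = 0.0346) was lost without replicate 3 of that group (-0.16, adjusted p = 0.32) or without replicate 2 of TNF-α (-0.17, adjusted p = 0.326). It was also lost with DESeq2 (adjusted p = 0.087), DESeq2 size factors (0.0512), library totals (0.119) or no filter (0.0555). BAD shares 23.7% of its exon bases with GPR137 on the opposite strand. Since strand use in counting is not given, reads of the pair cannot be separated. GPR137 was higher with both drugs than with TNF-α alone (0.31 ± 0.08, adjusted p = 0.000522). It was also higher with both drugs than with ruxolitinib (0.21 ± 0.08, adjusted p = 0.0153) or MCL (0.23 ± 0.08, adjusted p = 0.0113). TNF-α raised it over untreated cells (0.49 ± 0.08, adjusted p = 2.09e-06). Over TNF-α alone, MCL (0.08) and ruxolitinib (0.09) gave no call on it. The part of GPR137 in the counts of BAD was not tested.

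BCL2L11 (ENSG00000153094, chr2:111119378-111168447, plus strand) encodes BIM, which binds the survival proteins broadly and can activate BAX. It was higher with ruxolitinib, whether or not MCL was present. It had 30.9, 31.1 and 32.9 CPM with both drugs, 23.3, 19.6 and 22.99 with MCL, 29.6, 31.3 and 29.8 with ruxolitinib, 21.8, 24.75 and 21.7 with TNF-α alone, and 22.2, 26.3 and 26.6 in untreated cells. Both groups with ruxolitinib overlapped each other and lay above the other 3, which overlapped among themselves. Ruxolitinib raised it 1.33-fold (0.41 ± 0.08, adjusted p = 7.45e-05) and both drugs 1.39-fold (0.47 ± 0.08, adjusted p = 4.42e-07) over TNF-α alone. TNF-α gave no call against untreated cells (-0.14, 95% interval -0.30 to 0.02, adjusted p = 0.231), and without replicate 1 of the untreated group a fall was called (-0.22, adjusted p = 0.0496). MIR4435-2HG on the opposite strand shares 10.9% of the exon bases. Its log2 change over TNF-α alone was 0.07 with ruxolitinib (adjusted p = 0.683) and 0.395 with MCL (adjusted p = 0.000104). It rose by 0.50 with both drugs (adjusted p = 1.95e-07). With TNF-α over untreated cells it changed by -0.46 (adjusted p = 5.16e-06). The part of MIR4435-2HG in the counts of BCL2L11 was not tested.

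BBC3 (ENSG00000105327, chr19:47220822-47232766, minus strand) encodes PUMA, a strong killer known as a target of FOXO3. It rose with TNF-α and again with ruxolitinib, and MCL left no change that was called. It had 40.96, 45.8 and 37.1 CPM with both drugs, 28.7, 26.97 and 32.75 with MCL, 41.3, 42.0 and 41.99 with ruxolitinib, 28.7, 30.3 and 29.9 with TNF-α alone, and 16.7, 16.7 and 17.8 in untreated cells. The untreated libraries lay below the rest, and the groups with and without ruxolitinib did not overlap. TNF-α raised it 1.74-fold (0.80 ± 0.08, adjusted p = 9.5e-13), ruxolitinib 1.41-fold over TNF-α (0.49 ± 0.07, adjusted p = 1.69e-07) and both drugs 1.39-fold (0.48 ± 0.07, adjusted p = 4.31e-08). MCL was at -0.01 (95% interval -0.16 to 0.14, adjusted p = 0.955).

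BID (ENSG00000015475, chr22:17734138-17774770, minus strand) encodes the protein that caspase-8 cleaves, which links death receptors such as the TNF receptor to mitochondria. It was highest with TNF-α alone and with MCL, and lowest with both drugs. It had 40.2, 43.2 and 36.75 CPM with both drugs, 62.7, 59.2 and 58.2 with MCL, 50.5, 56.2 and 51.35 with ruxolitinib, 62.1, 63.6 and 63.5 with TNF-α alone, and 43.65, 46.2 and 47.3 in untreated cells. The highest library with both drugs lay just below the lowest untreated one, and those with MCL overlapped TNF-α alone. TNF-α raised it by 0.46 ± 0.06 (adjusted p = 1.13e-09). Against TNF-α alone it fell with ruxolitinib (-0.26 ± 0.06, adjusted p = 0.000482) and with both drugs (-0.66 ± 0.06, adjusted p = 4.1e-15), while MCL gave no call (-0.07, adjusted p = 0.393).

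With TNF-α, 5 of the 7 genes rose over untreated cells (PMAIP1, BMF, BIK, BBC3 and BID), and BAD and BCL2L11 did not pass. Of all tested genes 26.6% were called, 14.1% higher and 12.5% lower. The libraries of both groups did not overlap for the same 5 members, as for 38.8% of all genes. The median log2 change was 0.46 over the 7 and 0.00459 over all genes. In all 2275 genes were higher and 2017 lower, or 1983 and 2690 when libraries were scaled by their totals.

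With MCL, 1 of the 7 rose over TNF-α alone (PMAIP1) and 1 fell (BMF), where 26% of all genes were called, 10.9% higher and 15.1% lower. Groups did not overlap for 3 members, BIK besides these, and for 39% of all genes. The median was -0.07 over the 7 and -0.0185 over all genes. The 5 members that did not pass were BIK, BAD, BCL2L11, BBC3 and BID. With library totals the split of all calls went to 2381 higher and 2054 lower, in place of 1757 and 2442.

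With ruxolitinib, 3 of the 7 rose over TNF-α alone (BMF, BCL2L11 and BBC3) and 1 fell (BID), where 15.7% of all genes were called, 5.15% higher and 10.6% lower. Groups overlapped for BAD and were apart for the other 6 members, as for 29.7% of all genes. The median was 0.41 over the 7 and -0.00656 over all genes. Library totals turned the split of all calls from 832 higher and 1706 lower into 1181 and 1418.

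With both drugs, 3 of the 7 rose over TNF-α alone (PMAIP1, BCL2L11 and BBC3) and 4 fell (BMF, BIK, BAD and BID). In this comparison 54.8% of all genes were called, 25.5% higher and 29.3% lower, so a call by itself was common. Groups were apart for 7 members and for 60.6% of all genes. The median was -0.31 over the 7 and -0.0257 over all genes. All genes split into 4110 higher and 4730 lower, or 5091 and 3900 with library totals. These 3 comparisons share the TNF-α libraries.

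**Figure D2:**
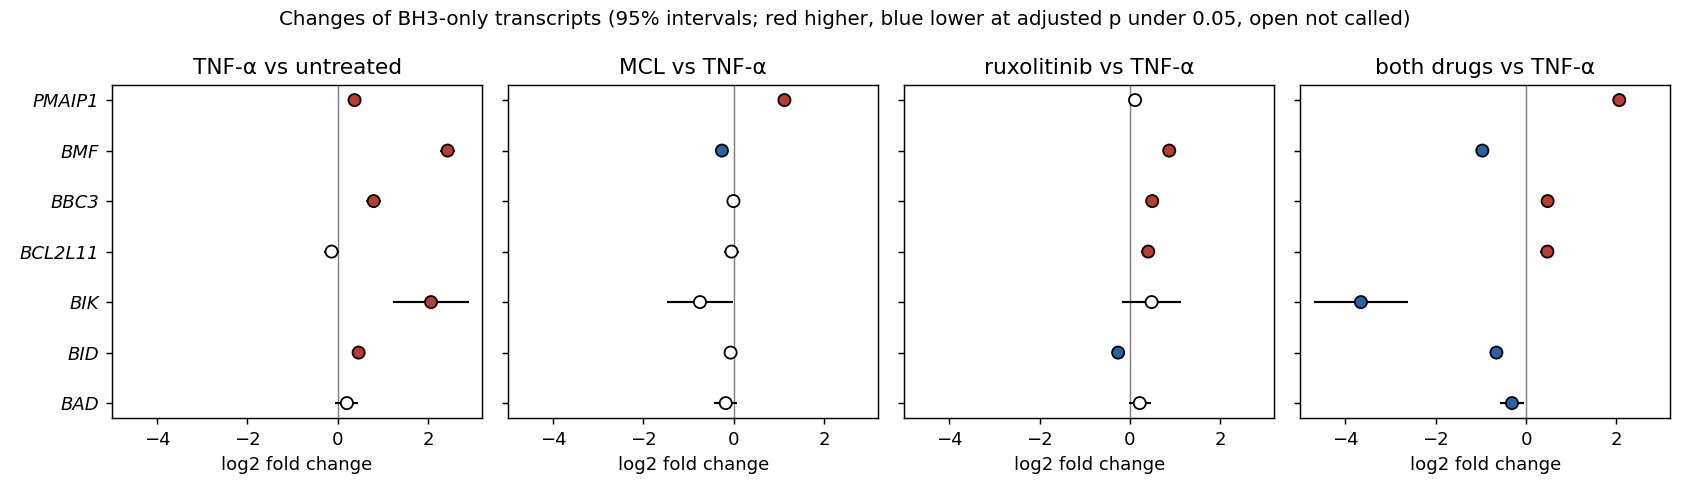
Log2 fold changes of the 7 genes with 95% intervals in 4 comparisons; red points were called higher, blue ones lower, and open ones were not called. PMAIP1 is highest and BIK lowest with both drugs, and the interval of BIK is the widest in each panel.

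The combination was also set against each single drug. MCL on top of ruxolitinib raised PMAIP1 by 1.95 ± 0.05 and lowered BMF by 1.84 ± 0.07 on the log2 scale (adjusted p = 8.17e-43 and 1.52e-33). It lowered BIK (-4.14 ± 0.49), BID (-0.39 ± 0.06) and BAD as well, which made 1 member higher and 4 lower, where 51.7% of all genes were called, 24.8% higher and 26.8% lower. Groups were apart for 5 members, BBC3 and BCL2L11 excepted, and for 56.3% of all genes. BBC3 (-0.02, 95% interval -0.15 to 0.12) and BCL2L11 (0.07, -0.08 to 0.22) gave no call. Ruxolitinib on top of MCL raised PMAIP1 by 0.94 ± 0.04, BCL2L11 by 0.53 ± 0.08 and BBC3 by 0.49 ± 0.07. It lowered BMF (-0.70 ± 0.07), BIK (-2.91 ± 0.56) and BID (-0.58 ± 0.06), 3 members up and 3 down, where 41.6% of all genes were called, 19.6% higher and 22% lower. BAD was not called there (-0.13, adjusted p = 0.444), and its groups overlapped, while those of the other 6 members and of 48.9% of all genes did not.

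Set directly against ruxolitinib, MCL gave higher PMAIP1 (1.01 ± 0.05, adjusted p = 3.74e-26) and BID (0.19 ± 0.06, adjusted p = 0.00859). It gave lower BMF (-1.13 ± 0.06, adjusted p = 1.91e-23), BIK (-1.23 ± 0.35), BBC3 (-0.50 ± 0.07), BCL2L11 (-0.46 ± 0.08) and BAD (-0.40 ± 0.12). Thus 2 members were higher and 5 lower, where 27.5% of all genes were called, 14.3% higher and 13.1% lower. Groups were apart for 7 members and for 37.5% of all genes. The call on BID was lost without replicate 1 of MCL (0.16, adjusted p = 0.0766) or of ruxolitinib (0.16, adjusted p = 0.0655). The call on BAD was lost without the same libraries (-0.34, adjusted p = 0.0754, and -0.29, adjusted p = 0.129).

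The drugs combined in different ways on different members. A test of the difference set the log2 change with both drugs against the sum of the changes with each drug, all over TNF-α alone. PMAIP1 was measured at 4.19-fold, against 2.35-fold for the sum, a difference of 0.83 ± 0.07 on the log2 scale (adjusted p = 1.67e-15). BMF was measured at 0.512-fold, against 1.52-fold for the sum (-1.57 ± 0.09, adjusted p = 1.39e-21). The sign of the ruxolitinib effect on BMF thus differed: it was -0.70 with MCL and 0.87 without MCL. BIK (-3.39 ± 0.66, adjusted p = 4.53e-05) and BID (-0.32 ± 0.08, adjusted p = 0.00181) also ended below the sum. BBC3 lay at the sum, with 1.39-fold measured and 1.4-fold added (difference -0.01, 95% interval -0.21 to 0.19), and BCL2L11 near it (0.12, -0.10 to 0.34). BAD was not called (-0.35 ± 0.18, adjusted p = 0.154), and was called without replicate 3 of ruxolitinib (-0.47, adjusted p = 0.0466). In this test 1 member was above the sum and 3 below, where 25% of all genes were called, 12.2% above and 12.8% below.

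**Figure D3:**
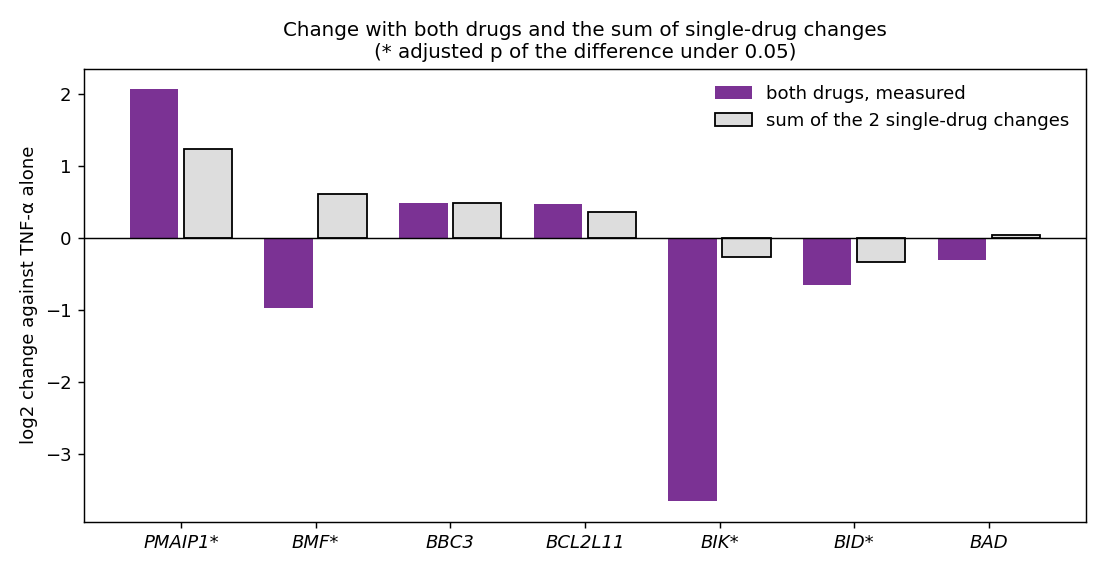
Log2 change against TNF-α alone with both drugs as measured and as the sum of the single-drug changes, for each of the 7 genes; an asterisk marks an adjusted p of the difference under 0.05. PMAIP1 exceeds its sum by 0.83, BMF and BIK differ from theirs by -1.57 and -3.39, and BBC3 matches its sum within its interval.

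Of the survival genes that these proteins bind, 5 were tested (BCL2, BCL2L1, BCL2L2, MCL1 and BCL2A1; BCL2L10 did not pass the filter). With both drugs against TNF-α alone, where 54.8% of all genes were called, 3 of the 5 fell and the other two, BCL2 and BCL2L2, gave no call. Their median was -0.15, with -0.03 over all genes. BCL2L1, which encodes BCL-XL, had 38.6 ± 1.83 CPM with both drugs, 62.2 ± 2.35 with MCL, 64.9 ± 2.77 with ruxolitinib and 98.9 ± 4.43 with TNF-α alone. BCL2A1, an NF-kB target and partner of NOXA, had 2.68 ± 0.252 CPM with both drugs, 7.26 ± 0.352 with MCL, 11.9 ± 0.838 with ruxolitinib and 14.9 ± 2.01 with TNF-α alone, against 3.135 ± 0.324 in untreated cells. MCL1, the other partner of NOXA, fell less, with 207 ± 4.60 CPM for both drugs and 229 ± 3.07 for TNF-α alone (-0.15 ± 0.04, adjusted p = 0.000479). With MCL, where 26% of all genes were called, 3 of the 5 fell, the same 3 as with both drugs (median -0.15), and with ruxolitinib, where 15.7% were called, 3 fell, BCL2, BCL2L1 and MCL1 (median -0.33). With TNF-α, where 26.6% of all genes were called, 1 rose (BCL2A1, 2.25 ± 0.14) and 1 fell (BCL2, -0.52 ± 0.07), with a median of 0.08.

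For the effectors BAX, BAK1 and BOK the smallest adjusted p was 0.151 (BAK1 with MCL) over the comparisons of MCL and ruxolitinib with TNF-α alone and of TNF-α with untreated cells. With both drugs BAK1 fell (-0.21 ± 0.06, adjusted p = 0.00288) and the median of the 3 was -0.21. BAX stood at 111 ± 8.44 CPM with both drugs and 119.7 ± 5.32 with TNF-α alone (-0.11, adjusted p = 0.182).

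**Figure D4:**
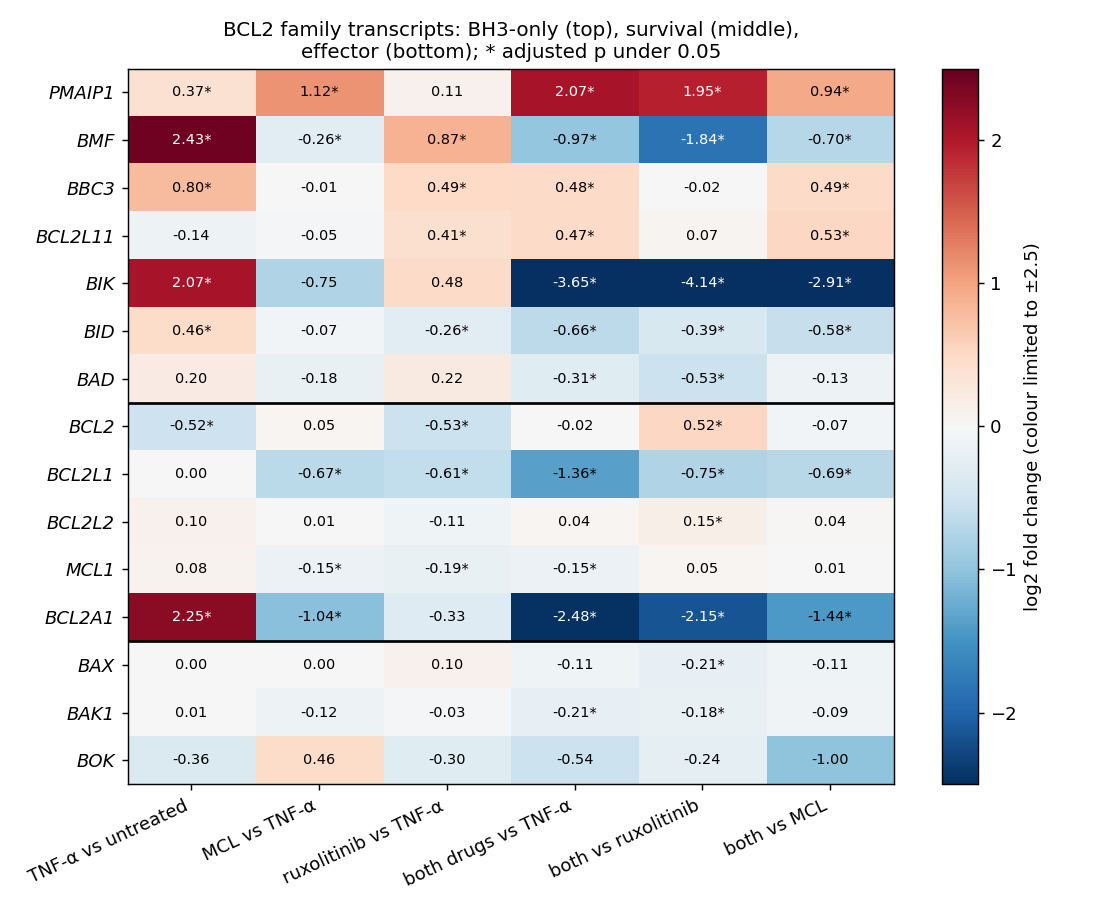
Log2 fold changes of the BH3-only, survival and effector genes of the BCL2 family in 6 comparisons; colour is limited to ±2.5, and an asterisk marks an adjusted p under 0.05. BCL2A1 and BCL2L1 are blue with both drugs in the same column where PMAIP1 is red, and the effectors stay near 0 except BOK, which had under 1 CPM.

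Of 13 other genes with a BH3 or BH3-like motif, 5 rose and 1 fell with both drugs against TNF-α alone (median 0.07). Of all genes 54.8% were called there, 25.5% higher and 29.3% lower. Among them the mitophagy receptor BNIP3L rose by 0.47 ± 0.05 and MLLT11 by 0.59 ± 0.09, and PCGF2 fell by 0.72 ± 0.07. With MCL 3 rose and 1 fell, where 26% of all genes were called. Ruxolitinib raised 1 and lowered 1 (BNIP3L up by 0.26, BCL2L13 down by 0.16), where 15.7% were called. With TNF-α, where 26.6% were called, 1 rose and 2 fell. The ubiquitin ligase HUWE1, which degrades MCL1, rose by 0.43 with TNF-α.

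Of 24 genes whose products hold, cleave or phosphorylate BH3-only proteins, 3 rose and 8 fell with both drugs (median -0.04). In that comparison 54.8% of all genes were called, 25.5% higher and 29.3% lower. PIM kinases, which phosphorylate BAD, split: PIM1 rose by 0.88 ± 0.06 and PIM2 fell by 1.81 ± 0.07 and PIM3 by 0.93 ± 0.04. With MCL 3 rose and 5 fell (PIM1 0.38, PIM2 -0.76), where 26% of all genes were called. Ruxolitinib raised 1 and lowered 5 (PIM1 -0.39, PIM2 -0.31), where 15.7% were called. TNF-α raised 7 and lowered 2 (PIM2 1.17, PIM1 0.98), where 26.6% were called. The medians were 0.02 with MCL, -0.02 with ruxolitinib and 0.02 with TNF-α. CASP8, whose product cleaves BID, was at -0.11 with both drugs (adjusted p = 0.0878), and DYNLL2, whose product holds BMF, at -0.04 (adjusted p = 0.47).

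Of 10 genes that act after the mitochondrial membrane opens, 2 rose and 2 fell with both drugs (median 0.08). The share called among all genes was 54.8%. CASP9, the initiator caspase of this route, rose by 1.03 ± 0.09, APAF1, its platform, by 0.22 ± 0.05, and HTRA2 fell by 0.44 ± 0.06. CASP9 had 26.9 ± 0.565 CPM with both drugs and 13.1 ± 0.851 with TNF-α alone. MCL raised 2 and lowered 1 (26% of all genes called), and ruxolitinib 1 and 2 (15.7% called). TNF-α raised 2, APAF1 and HTRA2, and the other 8 did not pass (26.6% of all genes called). The medians were -0.04 with MCL, 0.04 with ruxolitinib and -0.00273 with TNF-α.

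Of 21 transcription factors known to act on BH3-only genes, 7 rose and 10 fell with both drugs (median -0.02). Among all genes 54.8% were called. DDIT3, which encodes CHOP, had 32.8 ± 2.55 CPM with both drugs, 12.2 ± 0.450 with MCL, 6.425 ± 0.870 with ruxolitinib and 6.64 ± 0.610 with TNF-α alone. ATF3 had 38.8 ± 1.96 CPM with both drugs, 13.6 ± 0.462 with MCL, 5.58 ± 0.166 with ruxolitinib and 5.87 ± 0.530 with TNF-α alone (SD, n = 3 each). Like PMAIP1, these 2 stress factors were above the sum of single-drug changes, by 1.48 ± 0.17 and 1.59 ± 0.16 (adjusted p = 1.43e-10 and 5.3e-12). Of all genes 12.2% were called above the sum, and a link of either factor to PMAIP1 was not tested. FOXO3, a known activator of BCL2L11 and BBC3, rose with ruxolitinib (0.44 ± 0.05), MCL (0.29 ± 0.05) and both (0.73 ± 0.05). Group means of FOXO1 went the other way, with 58.76 CPM for TNF-α alone and 46.41 for ruxolitinib. They were 44.53 CPM with MCL and 42.71 with both drugs. FOXO4 stood at 9.942 CPM with TNF-α alone, 11.81 with ruxolitinib and 19.68 with both drugs, so the FOXO genes did not share a direction. TP73 fell by 1.97 ± 0.09 with both drugs. With MCL 7 rose and 9 fell (26% of all genes called), with ruxolitinib 2 and 4 (15.7%), and with TNF-α 11 and 3 (26.6%). The medians were -0.05 with MCL, -0.06 with ruxolitinib and 0.18 with TNF-α.

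Of 15 FOXO targets outside the group, 7 rose and 4 fell with both drugs (median 0.22), where 54.8% of all genes were called. The largest changes were BCL6 at 2.78 ± 0.23, GADD45B at -2.52 ± 0.21 and KLHL24 at 2.08 ± 0.10. Ruxolitinib raised 5 and lowered 2 (median 0.20, 15.7% of all genes called), with KLHL24 at 0.78, TRIB1 at -0.78 and CCNG2 at 0.72. MCL raised 2 and lowered 4 (median -0.02, 26% called), and TNF-α raised 6 and lowered 3 (median 0.15, 26.6% called).

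Promoters of 6 of the 7 genes were in the RefSeq table (GRCh38.p14), as the bases just before and after each start. BID had 5 promoters, BMF and BAD 2 each and the others 1. Both strands were searched for the letters of 6 motifs. A gene counted if any of its promoters held a match, whereas the percentages are over single promoters. The FOXO motif GTAAACA was in 3.42% of 35116 promoters and, of the 6 genes, in that of BCL2L11. BMF and BBC3, which like BCL2L11 rose with ruxolitinib, held no match. The match of BCL2L11 is shown in capitals in bases -243 to -197 before the RefSeq start (chr2:111120671-111120717, plus strand). This stretch lies inside the GENCODE span of the gene given above, which begins further upstream.
BCL2L11: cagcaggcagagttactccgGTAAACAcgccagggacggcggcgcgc
The NF-kB motif, GGG, 5 of any base and CC, was in 58.7% of promoters and in those of PMAIP1, BMF, BBC3, BCL2L11, BID and BAD, so its presence separated no member that TNF-α raised from one it did not. The match of BMF nearest to the start is shown in bases -40 to -1 (chr15:40108880-40108919, minus strand). It reads the same kind of match on both strands, and a further match from base -45 ends inside the window.
BMF: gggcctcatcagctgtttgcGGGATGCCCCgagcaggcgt
The AP-1 motif TGANTCA (7.71% of promoters) was in that of BBC3, and the E-box CACGTG (7.26%) in those of BBC3 and BID. Neither TGATGNAA, for ATF4 (3.62%), nor TTCNNNGAA, for STAT (7.66%), was in these windows. A match is a run of letters and not a binding site, and enhancers were not searched.

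Genes with a similar course over the 5 groups were found by the root-mean-square difference of centred log2 group means, among 9928 or 9929 protein-coding genes with at least 5 CPM. Nearest to PMAIP1 were NMT2 (0.149), DDIT3 (0.161) and MRNIP (0.167), where PMAIP1 itself varied by 0.889 around its mean. Nearest to BMF, which varied by 1.1, were DEPP1 (0.116), SLC2A6 (0.276) and SDC4 (0.282). DEPP1, known as a FOXO-regulated gene, had 12.02 CPM with both drugs, 20.5 with MCL, 40.3 with ruxolitinib, 25.97 with TNF-α alone and 5.096 in untreated cells. Nearest to BIK, which varied by 1.21, were CLIP2 (0.247), FP565260.3 (0.28) and CIITA (0.283), the last with 24.5 CPM with both drugs and 159 with TNF-α alone. A prior count of 2, added before taking logs, narrows the course of BIK, which had 2 reads in each library with both drugs. BBC3 lay nearest to PLEKHH3 (0.0619), IL13RA1 (0.0819) and TTBK2 (0.0998). BCL2L11, BID and BAD varied by 0.213, 0.244 and 0.184 around their means. They had as nearest genes HIST2H2BE (0.0394), NOCT (0.0492) and CTSB (0.0179).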

How the data were processed

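The deposited table held raw counts, whole reads per gene with no normalization, for 15 libraries. Tools named in the submitters' processing notes are featureCounts 1.5.0-p3, DESeq2 1.16.1 and HISAT2 2.0.5, and builds mm10 and hg38, all without a role. Gene starts and ends matched GENCODE 29 (hg38) for 58735 of 58735 genes; per the file headers a gene length was deposited too. Columns headed as control were taken as untreated, the one group without TNF-α or a drug. Genes passed edgeR's filterByExpr (minimum count 10), which removed 42589.

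Tests were run in edgeR 4.0.16 (R 4.3.3) with TMM factors, 1 fit over 15 libraries with a coefficient per group, robust quasi-likelihood tests, and p-values adjusted by Benjamini-Hochberg over 16146 genes. Standard errors (SE) were taken as |log2 change| over √F. The test was also run on simulated counts. These were drawn with the means and spread fitted to these data, so they could not show a poor fit of the model. Pairs of libraries within groups differed by more than sampling noise (chi-square per degree of freedom 2.02 to 4.07). DESeq2 1.42.0 served as an alternative. The BH3-only genes, the lists of related genes (survival, effector, BH3-like, binding and modifying, downstream, transcription factors and FOXO targets) and the motifs were chosen with earlier results of these data known. The text names the 7 members in each comparison, and, from each list, some of the 3 called genes that changed most. BAX, BOK, CASP8, DYNLL2, FOXO1 and FOXO4, and FOXO3 outside ruxolitinib alone, were chosen after their values were seen. Likeness names 3 genes per member, or 1 for the 3 members that varied least. One gene and a list tied to it are not reported here.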

Additional observations from a re-analysis of the deposited data

Results flagged for a closer look

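For 4 of the 7 genes the log2 effect of MCL with ruxolitinib present differed from that without it, by the test of the difference itself in edgeR over all 16146 genes. It is the same test as that against the sum of single-drug changes above, and so not a further result. The difference was 0.83 for PMAIP1 (adjusted p = 1.67e-15), where MCL raised the level by 1.95 with ruxolitinib and 1.12 without. It was -1.57 for BMF (adjusted p = 1.39e-21), with an MCL effect of -1.84 with ruxolitinib and -0.26 without. For BIK it was -3.39 (adjusted p = 4.53e-05), with -4.14 in the presence of ruxolitinib and -0.75 in its absence, and the libraries with both drugs had 2 reads each. For BID it was -0.32 (adjusted p = 0.00181), with -0.39 in the presence of ruxolitinib and -0.07 in its absence. Of all tested genes 25% passed this test.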

How the results depend on the processing

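Each of 56 values (7 genes in 8 comparisons) was recomputed under scaling, filter, DESeq2, restricted-fit, replicate-block and leave-one-out alternatives. Of these, 51 kept their direction where called and their side of the threshold in each, and 5 did not: BAD in 3 comparisons, BID for MCL against ruxolitinib and BCL2L11 for TNF-α, each given above; the cause was not tested. Counts of called genes stayed within 1.5 times of the main ones. With replicate number as a block, 4326 genes were called for TNF-α (4292 without) and 8890 for both drugs (8840 without), and no call on the 7 genes changed. Replicate numbers gave no sign of a strong pairing: correlations of same-numbered deviations were -0.0483 to 0.0483 over 30 pairs. Those of differently numbered libraries were -0.0714 to 0.072. A weak pairing could be missed, since counting noise enters these correlations. Leaving out 1 library moved a called value by over 1.5 times for BAD with both drugs only (-0.31; -0.16 without replicate 3 of that group, -0.17 without replicate 2 of TNF-α). Depth limits BIK, at 2 to 42 reads.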
